A study of Homo sapiens with 2 samples.

Results

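The end of the short arm of chromosome 2, given by its gene list as bands 2p25 to 2p23, was examined in 2 subclones of HMC1, an established cell line from a human mast cell leukaemia. The list held 60 genes, proposed with results of these arrays in view, and its rule took the log2 difference between the subclones along the gene order. Both the choice of the genes and their differences therefore come from the same contrast, and the values below are a description with no test. Of the 60 genes, 58 had a probe set of their own among the 19775 genes named on the array. MBOAT2 was not analysed here because no probe set carried its symbol alone or with others. RDH14 was covered only by a probe set shared with the readthrough gene NT5C1B-RDH14, which read 55 in CD2-positive cells, against 44 in CD2-negative cells. The RefSeq gene table placed 59 of the genes on chromosome 2 and DNMT3B, a DNA methyltransferase gene, on chromosome 20, so DNMT3B goes against the label of the list. The gene listed as EPT1 is named SELENOI in that table.

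The CD2-positive subclone had been sorted from HMC1 cells by FACS on the surface receptor CD2, an adhesion receptor of T cells that is also found on neoplastic mast cells. The CD2-negative subclone lacked surface CD2, and the labels give no treatment, time or genetic change for either. RNA of each subclone was hybridised to 1 Affymetrix U133 Plus 2.0 array, so there is no spread between cultures, and no p-value or standard error can be given. The sample titles call only the CD2-positive cells a subclone, and both are called subclones here for brevity. The labels do not say whether a subclone grew from a single cell.

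Neighbouring genes on a chromosome sit on the same DNA segment and share its number of copies, but each has its own promoter and its own regulation. The end of 2p is known for MYCN, NBAS and DDX1, adjacent genes that are amplified together in many neuroblastomas, and for growth-related enzyme genes such as RRM2 and ODC1. DNA was not measured in this study.

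Both arrays held 54675 probe sets, with summed intensities of 1860969 in CD2-positive cells, against 1875750 in CD2-negative cells. The probe sets that target Bacillus genes, absent from human RNA, read at most 4 on either array. CD2 read 219 in CD2-positive cells, against 13 in CD2-negative cells, as the labels say. Of 8 mast cell markers measured, 7 reached an intensity of 64 on at least 1 array, and the 8 summed to 9785 in CD2-positive cells, against 6302 in CD2-negative cells. All 8 read higher in the CD2-positive subclone, from 1.03-fold for KIT, the stem cell factor receptor gene (1373 in CD2-positive cells, against 1328 in CD2-negative cells), to 5.89-fold for CPA3, mast cell carboxypeptidase (1220 in CD2-positive cells, against 207 in CD2-negative cells). FCER1A stood at 3.38-fold on dim values, HPGDS at 2.34-fold and MITF at 1.79-fold, and TPSAB1 made up the largest part of the sum, at 4806 in CD2-positive cells, against 3142 in CD2-negative cells. None of 17 measured markers of T, B, erythroid, epithelial and stromal cells and monocytes reached 64, and they summed to 89 in CD2-positive cells, against 100 in CD2-negative cells. The part of the mast cell marker difference in the values below was not tested. In RNA of a whole culture, fewer cells of a kind and less RNA per cell cannot be told apart.

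Each gene was represented by its brightest probe set and compared where at least 1 array reached a log2 intensity of 6, which is 64, as 3564 genes did. Of the 58 measured members, 33 were compared, and all 33 read higher in the CD2-positive subclone. A log2 difference above 0 was found for 41.9% of all compared genes, but the list had been chosen on this contrast, so nothing is read from the gap. The members' median log2 difference was 0.36, with a range from 0.03 to 1.37, beside a median of -0.05 over all compared genes. At least 2-fold higher were 5 of the 33 members, RRM2, NBAS, LBH, ITGB1BP1 and MYCN, beside 1.21% of all compared genes. No compared member was at least 2-fold lower, beside 0.758% of all compared genes, and none was 1.5-fold lower, beside 3.76%.

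**Figure D1:**
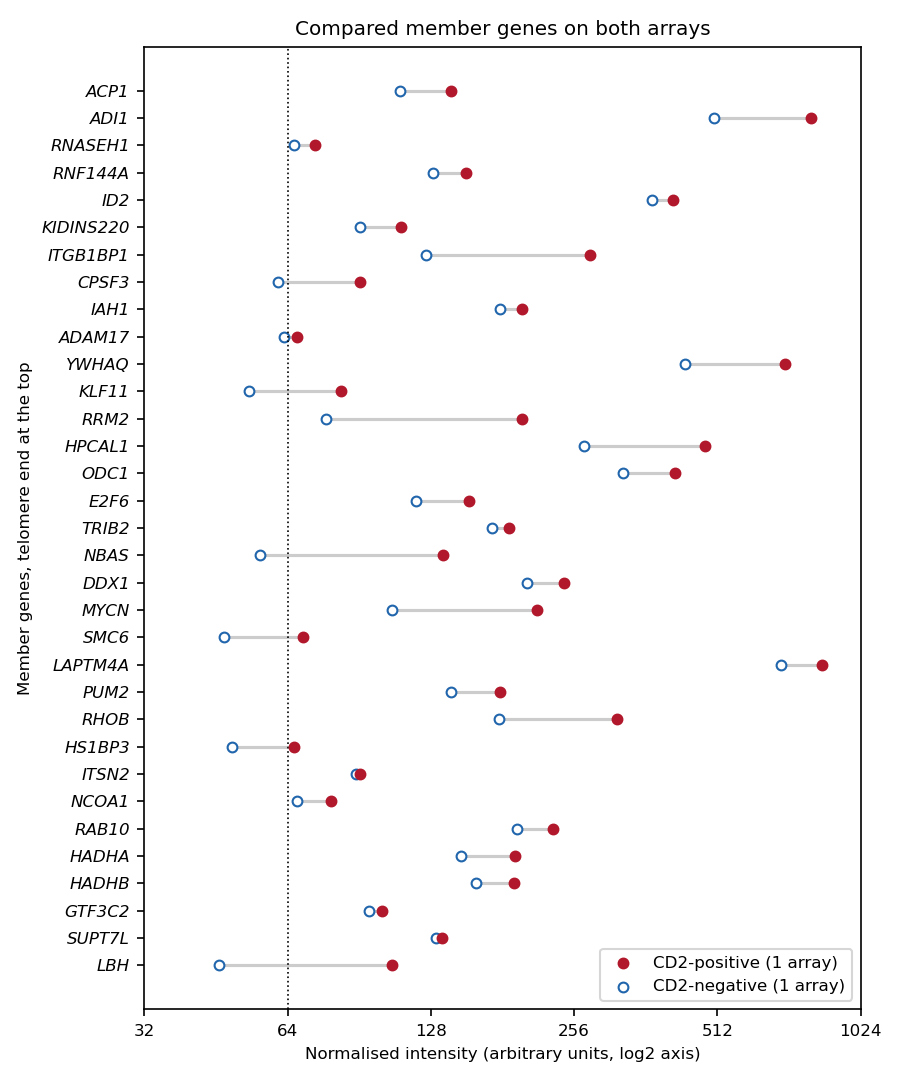
Normalised intensity (horizontal log2 axis, arbitrary units) of the 33 compared members in gene order, with 1 filled point for the CD2-positive and 1 open point for the CD2-negative array, and a dotted line at the floor of 64. Every filled point lies to the right of its open partner, by the widest gap in RRM2 (199 CD2-positive, 77 CD2-negative) and the narrowest in ITSN2 (91 CD2-positive, 89 CD2-negative).

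A member that reached the floor only through the CD2-positive array had to read higher there. This was so for 7 of the 33: CPSF3, ADAM17, KLF11, NBAS, SMC6, HS1BP3 and LBH. The other 26 reached 64 on both arrays, and their median log2 difference was 0.28. Over all 58 measured members, including those near background, 50 had a positive difference, 6 were equal and 2 were negative, with a median of 0.29. Over all 19775 genes with no floor, 29.8% had a positive difference.

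The 300-base promoter windows of the 5 members past 2-fold are printed to show the start-site sequence of the genes that differed most. They run from 250 bases before to 50 after the RefSeq start, 5′ to 3′ along the strand of the gene, and come from RefSeq (GRCh38.p14). ITGB1BP1 (chr2:9423479-9423778, minus strand) and RRM2 (chr2:10122489-10122788, plus strand) have 2 starts each in that table, and the first listed is shown. NBAS lies at chr2:15561285-15561584 on the minus strand, MYCN at chr2:15940300-15940599 on the plus strand and LBH at chr2:30231284-30231583 on the plus strand. Capitals mark matches, on either strand, to 5 motifs: the E-box CACGTG, the CCAAT box, the GC box GGGCGG, the CRE TGACGTCA and the E2F words TTTGGCGC, TTTCCCGC, TTTGCCGC and TTTCGCGC.
ITGB1BP1: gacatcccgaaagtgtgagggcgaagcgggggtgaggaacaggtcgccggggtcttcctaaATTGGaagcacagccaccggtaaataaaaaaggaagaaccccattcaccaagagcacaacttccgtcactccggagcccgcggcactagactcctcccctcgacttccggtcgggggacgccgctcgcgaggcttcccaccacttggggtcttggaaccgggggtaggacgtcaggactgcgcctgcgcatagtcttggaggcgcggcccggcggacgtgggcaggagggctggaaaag
RRM2: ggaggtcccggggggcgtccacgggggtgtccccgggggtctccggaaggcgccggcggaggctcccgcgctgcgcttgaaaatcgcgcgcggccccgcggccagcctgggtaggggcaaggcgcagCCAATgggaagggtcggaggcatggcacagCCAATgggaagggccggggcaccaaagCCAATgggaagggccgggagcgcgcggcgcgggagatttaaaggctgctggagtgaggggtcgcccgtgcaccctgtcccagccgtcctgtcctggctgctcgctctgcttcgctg
NBAS: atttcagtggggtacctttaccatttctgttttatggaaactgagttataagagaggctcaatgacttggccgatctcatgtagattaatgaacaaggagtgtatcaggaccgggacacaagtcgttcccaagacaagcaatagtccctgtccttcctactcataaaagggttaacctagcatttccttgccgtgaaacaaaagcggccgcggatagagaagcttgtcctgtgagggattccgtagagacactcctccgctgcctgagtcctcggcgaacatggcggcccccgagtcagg
MYCN: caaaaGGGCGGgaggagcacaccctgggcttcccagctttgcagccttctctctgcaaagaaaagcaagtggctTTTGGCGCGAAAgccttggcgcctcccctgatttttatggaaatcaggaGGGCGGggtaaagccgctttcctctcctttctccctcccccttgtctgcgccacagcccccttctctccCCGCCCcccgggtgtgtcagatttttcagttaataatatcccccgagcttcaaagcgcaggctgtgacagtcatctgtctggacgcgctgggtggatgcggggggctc
LBH: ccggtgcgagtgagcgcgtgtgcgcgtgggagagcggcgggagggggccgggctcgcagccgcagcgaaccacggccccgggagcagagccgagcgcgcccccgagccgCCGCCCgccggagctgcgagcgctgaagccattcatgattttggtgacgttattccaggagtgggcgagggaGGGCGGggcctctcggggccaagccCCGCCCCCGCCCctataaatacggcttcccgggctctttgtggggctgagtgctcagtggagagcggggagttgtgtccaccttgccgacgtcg

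No motif of the 5 was present in all of these windows. RRM2 held 3 CCAAT boxes and ITGB1BP1 held 1, on the opposite strand. MYCN held 3 GC boxes and 2 E2F words that overlap each other on opposite strands. LBH held 4 GC boxes, and the NBAS window held none of the motifs. Over the windows of the 33 compared members, 24 (72.7%) held a GC box, 8 (24.2%) a CCAAT box, 4 (12.1%) an E-box, 3 (9.09%) an E2F word and 0 the CRE. Among the first listed windows of 27305 genes in the table, which include non-coding genes, the shares were 44.6%, 35.7%, 7.43%, 3.33% and 1.98% in the same order. Those genes were not held to the floor that the compared members had passed, so nothing is read from the gaps. A match is a run of letters and was not tested as a binding site.

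Enzyme genes of nucleotide, polyamine and methionine metabolism had 3 of 4 members compared, all higher in the CD2-positive subclone. RRM2, the small subunit of ribonucleotide reductase, which makes the building blocks of DNA, read 199 in CD2-positive cells, against 77 in CD2-negative cells (2.58-fold, log2 difference 1.37). Its other probe set read 122 in CD2-positive cells, against 57 in CD2-negative cells. ADI1, an enzyme of the methionine salvage pathway, read 804 in CD2-positive cells, against 504 in CD2-negative cells (1.60-fold). Both of its probe sets above the floor had log2 differences of at least 0.67, with the higher at 0.80. ODC1, the rate-limiting enzyme of polyamine synthesis, read 417 in CD2-positive cells, against 325 in CD2-negative cells (1.28-fold). CAD, which carries out the first steps of pyrimidine synthesis, lay below the floor at 37 in CD2-positive cells, against 35 in CD2-negative cells.

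Transcription factor and cofactor genes had 8 of 11 members compared, with a median log2 difference of 0.30. Of these 8, 2 were past 2-fold, beside 1.21% of all compared genes. MYCN, a MYC family transcription factor, read 214 in CD2-positive cells, against 106 in CD2-negative cells (2.02-fold), just past the 2-fold rule. That value rests on 1 of its 10 probe sets. The next brightest read 14 in CD2-positive cells, against 8 in CD2-negative cells, and the other 8 read at most 6, so the mean over all 10 gave a log2 difference of 0.11. LBH, a transcription cofactor gene known from limb bud and heart development, read 106 in CD2-positive cells, against 46 in CD2-negative cells (2.30-fold) on its single probe set. KLF11, a zinc finger repressor of the Krüppel-like family, read 83 in CD2-positive cells, against 53 in CD2-negative cells (1.57-fold), and its dimmer probe set gave nearly the same log2 difference (0.63 beside 0.65).

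The remaining compared genes of this group differed by less. E2F6, an E2F family member that represses transcription, read 154 in CD2-positive cells, against 119 in CD2-negative cells (1.29-fold). NCOA1, a coactivator of nuclear receptors, read 79 in CD2-positive cells, against 67 in CD2-negative cells. ID2, which blocks DNA binding by basic helix-loop-helix factors, read 414 in CD2-positive cells, against 373 in CD2-negative cells, a log2 difference of 0.15. The 2 general transcription genes stood close to equality. GTF3C2, a subunit of the RNA polymerase III factor TFIIIC, read 101 in CD2-positive cells, against 95 in CD2-negative cells. SUPT7L, a subunit of a SAGA-type histone acetyltransferase complex, read 135 in CD2-positive cells, against 131 in CD2-negative cells. TAF1B, a subunit of the RNA polymerase I factor SL1, GREB1 and GRHL1 were below the floor at 3 to 19 on both arrays.

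Of the 5 surface and secreted protein genes, 2 were compared, and they stood far apart on their brightest probe sets. ITGB1BP1, whose product ICAP-1 binds the tail of the beta-1 integrin, read 276 in CD2-positive cells, against 125 in CD2-negative cells (2.21-fold). Its next probe set, below the floor, read 12 in CD2-positive cells, against 6 in CD2-negative cells, and the last read 3 on both arrays, so the mean over all 3 was 0.71 on the log2 scale. ADAM17, the protease that sheds TNF and other membrane proteins, read 67 in CD2-positive cells, against 63 in CD2-negative cells, a log2 difference of 0.09. Below the floor, its second probe set read 44 in CD2-positive cells, against 35 in CD2-negative cells. The last read 7 in CD2-positive cells, against 5 in CD2-negative cells, and the mean over all its probe sets was 0.30. SDC1 and PXDN read no more than the Bacillus controls, and POMC read 13 in CD2-positive cells, against 10 in CD2-negative cells.

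Membrane traffic, cilia and cytoskeleton was the largest role group, and 5 of its 13 genes were compared, with a median log2 difference of 0.28. NBAS, which acts in transport from the Golgi back to the endoplasmic reticulum, read 136 in CD2-positive cells, against 56 in CD2-negative cells (2.43-fold). Its next probe set, below the floor, read 11 in CD2-positive cells, against 4 in CD2-negative cells, and the last read 2 on both arrays. The mean over its 3 probe sets was 0.91, under the 2-fold rule. LAPTM4A, a membrane protein of lysosomes and late endosomes, was the brightest member at 848 in CD2-positive cells, against 698 in CD2-negative cells (1.21-fold). The small GTPase gene RAB10 read 231 in CD2-positive cells, against 194 in CD2-negative cells. HS1BP3 read 66 in CD2-positive cells, against 49 in CD2-negative cells. ITSN2, a scaffold of endocytosis, was nearly equal at 91 in CD2-positive cells, against 89 in CD2-negative cells. Of the 8 genes of this group below the floor, UBXN2A was the only one that read lower in the CD2-positive subclone, at 57 in CD2-positive cells, against 63 in CD2-negative cells. Its other probe set went the other way, at 48 in CD2-positive cells, against 45 in CD2-negative cells. ASAP2 differed 2-fold at 6 in CD2-positive cells, against 3 in CD2-negative cells, values close to the Bacillus level. SH3YL1, TRAPPC12, WDR35, DTNB, KIF3C and MAPRE3 read higher in the CD2-positive subclone by log2 differences between 0.30 and 0.51.

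Signalling genes had 6 of 9 members compared and a median log2 difference of 0.49, with 3 past 1.5-fold, beside 4.24% of all compared genes. HPCAL1, a calcium sensor of the visinin family, read 483 in CD2-positive cells, against 269 in CD2-negative cells (1.80-fold). Its other probe set gave a log2 difference of 1.09, beside 0.84 for the brightest. RHOB, a small GTPase of endosomes, read 315 in CD2-positive cells, against 178 in CD2-negative cells (1.77-fold), and a second probe set, below the floor, read 57 in CD2-positive cells, against 26 in CD2-negative cells. YWHAQ, the 14-3-3 theta adaptor gene, read 709 in CD2-positive cells, against 438 in CD2-negative cells (1.62-fold), and its 3 probe sets lay between 0.69 and 0.96. These 3 genes stood apart from the rest of the group. KIDINS220, a scaffold of neurotrophin receptor signalling, read 111 in CD2-positive cells, against 91 in CD2-negative cells. RNF144A, a ubiquitin ligase gene, read 152 in CD2-positive cells, against 129 in CD2-negative cells. TRIB2, a pseudokinase of the tribbles family, read 187 in CD2-positive cells, against 172 in CD2-negative cells. Its other probe set gave a log2 difference of 0.30, beside 0.12 for the brightest. ROCK2, ADCY3 and VSNL1 were below the floor at 3 to 15 on both arrays.

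Of the genes for RNA processing and translation 3 of 5 were compared, and of those for DNA repair, replication and chromosomes 2 of 5, with none past 1.5-fold. CPSF3, the endonuclease that cuts messenger RNA before its tail is added, read 91 in CD2-positive cells, against 61 in CD2-negative cells (1.49-fold). PUM2, an RNA-binding repressor of translation, read 179 in CD2-positive cells, against 141 in CD2-negative cells. The RNA helicase gene DDX1 read 244 in CD2-positive cells, against 204 in CD2-negative cells (1.20-fold). DDX1 lies between NBAS and MYCN in the gene order, and its log2 difference of 0.26 was well under those of both neighbours (1.28 and 1.01). The value of MYCN rests on 1 of its 10 probe sets. Its mean over all 10, most of them no brighter than the Bacillus controls, was 0.11, under that of DDX1. NBAS passed the floor only through the CD2-positive array. Its mean over all probe sets, the dimmest of which read 2 on both arrays, was 0.91. SMC6, part of a complex for DNA repair and chromosome structure, read 69 in CD2-positive cells, against 47 in CD2-negative cells (1.47-fold). RNASEH1, which removes RNA from RNA-DNA hybrids, read 73 in CD2-positive cells, against 66 in CD2-negative cells, a log2 difference of 0.15 beside 0.67 for the other probe set that passed the floor. NOL10, EIF2B4, GEN1 and CENPO were below the floor with log2 differences from 0.00 to 0.35. DNMT3B, the gene on chromosome 20, read 7 in CD2-positive cells, against 8 in CD2-negative cells.

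Of 7 genes of lipid and other metabolism, 4 were compared and none passed 1.5-fold. HADHA and HADHB encode the alpha and beta subunits of the mitochondrial trifunctional protein of fatty acid oxidation and are neighbours. HADHA read 192 in CD2-positive cells, against 148 in CD2-negative cells (1.30-fold), with 3 probe sets between 0.32 and 0.42. HADHB read 191 in CD2-positive cells, against 159 in CD2-negative cells (1.20-fold). ACP1, a low molecular weight protein tyrosine phosphatase gene, read 141 in CD2-positive cells, against 110 in CD2-negative cells (1.28-fold), with 0.05 and 0.16 for its other probe sets above the floor. Its last probe set, dimmer than the Bacillus controls at their highest, read 2 in CD2-positive cells, against 3 in CD2-negative cells. IAH1, named for an esterase of yeast, read 199 in CD2-positive cells, against 179 in CD2-negative cells, with log2 differences of 0.15 and 0.58 for its 2 probe sets above the floor. EPT1, an enzyme gene of phosphatidylethanolamine synthesis, was below the floor at 21 in CD2-positive cells, against 19 in CD2-negative cells. TMEM18, a nuclear membrane protein gene in no role group, read 48 in CD2-positive cells, against 36 in CD2-negative cells.

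The only repeat within the arrays was that between probe sets. Where a gene had several probe sets past the floor, as 937 genes did, the standard deviation of a single probe set's log2 difference, taken from the gap between the 2 brightest, was 0.13. This figure covers probe behaviour and neither cultures nor hybridisations. In 13 members that had several past the floor, 16 further probe sets gave 15 positive differences, 1 of 0.00 and none negative. Of the 16, 3 (of RNASEH1, RRM2 and IAH1) passed the floor only through the CD2-positive array and had to be positive. Over the 1295 further probe sets of all compared genes, 48.9% were positive. The 16 were read from the same 2 RNA samples on which the list was chosen, so nothing is read from that gap either.

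**Figure D2:**
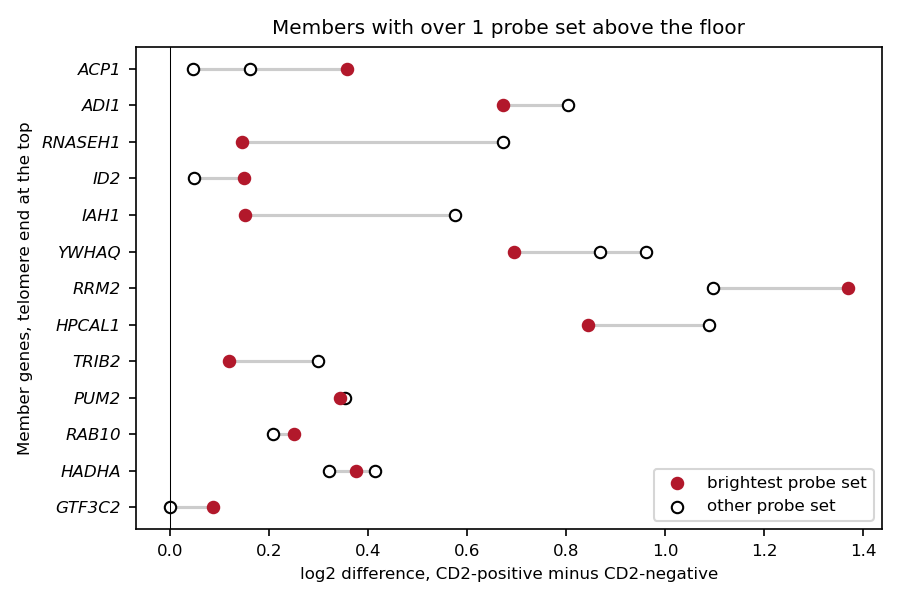
Log2 difference (CD2-positive minus CD2-negative, horizontal axis) of each probe set above the floor for the 13 members that had more than 1, with the brightest filled. No point lies left of 0, and RNASEH1 (0.15 and 0.67) and IAH1 (0.15 and 0.58) show the widest gaps between probe sets.

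The list did not hold every gene of its stretch. From SH3YL1, the first member on the chromosome, to LBH, the last, 187 genes had a probe set and 53 were compared, so 20 compared genes were no members. Of these 20, 11 had a positive and 9 a negative log2 difference, a median of 0.03, against 33 positive and none negative among the members. All 9 negative compared genes of the stretch were therefore outside the list. Over all 53 compared genes of the stretch, 44 were positive (83.0%), beside 41.9% of all compared genes, and the median was 0.28. As 33 of the 53 were chosen on this contrast, nothing is read from that share. None of the 20 compared genes of the stretch outside the list was past 2-fold. PDIA6, a protein disulfide isomerase gene of the endoplasmic reticulum, was the only one past 1.5-fold, at 204 in CD2-positive cells, against 131 in CD2-negative cells (1.56-fold). The most negative was PPP1CB, a catalytic subunit gene of protein phosphatase 1, at 289 in CD2-positive cells, against 357 in CD2-negative cells (log2 difference -0.30), chosen here after its value was seen.

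The differences were not even along the stretch. The 53 compared genes were cut into 4 blocks of 13 or 14 in gene order. In block 1, from ACP1 to KLF11, all 14 genes were positive, with a median of 0.32. In block 2, from RRM2 to LAPTM4A, 12 of 13 were positive with a median of 0.37, and the exception was CYRIA, no member of the list, at 137 in CD2-positive cells, against 143 in CD2-negative cells. In block 3, from PUM2 to TMEM214, 10 of 13 were positive with a median of 0.25. In block 4, from OST4 to LBH, 8 of 13 were positive with a median of 0.04. LBH at 1.20 was the only gene of that block past 1.5-fold, and its neighbour YPEL5 stood at -0.19. Genes outside the list held 2 of 14 places in block 1, 3 of 13 in block 2, 5 of 13 in block 3 and 10 of 13 in block 4, so the fall of the medians along the stretch goes with a fall in the share of members. Among the members alone the medians were 0.32, 0.46, 0.30 and 0.09, and among the others 0.28, 0.26, -0.08 and -0.02, in the order of the blocks.

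**Figure D3:**
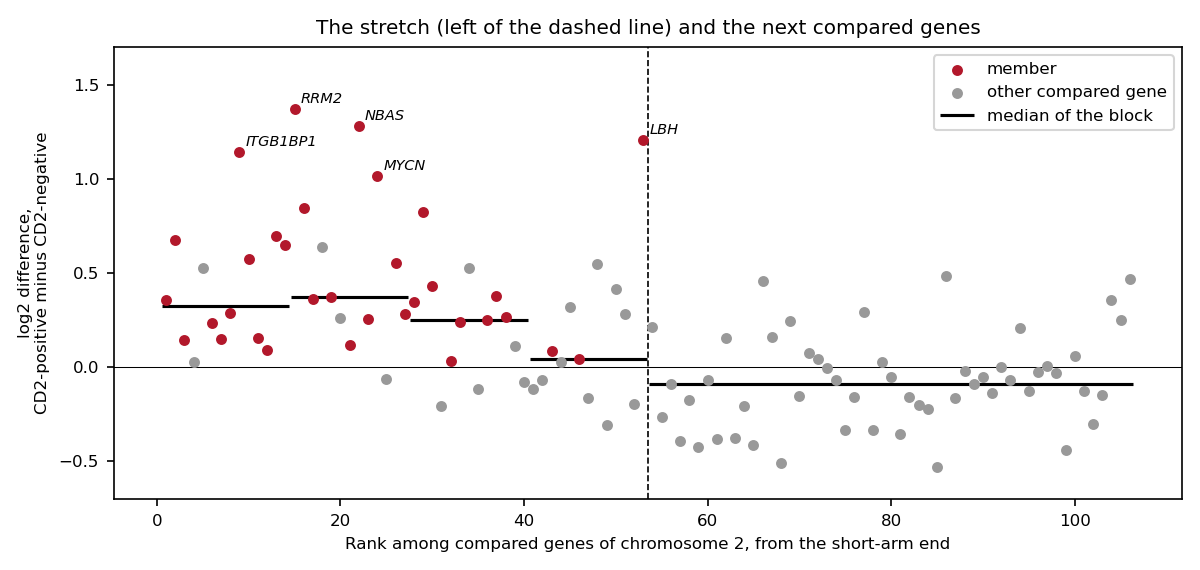
Log2 difference (vertical axis) of the 53 compared genes of the stretch and the 53 that follow it, by rank from the short-arm end, with members in red, other genes in grey and bars for the medians of the 4 blocks and of the following genes. The bars stand at 0.32, 0.37, 0.25 and 0.04 within the stretch and at -0.09 beyond it.

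Beyond LBH the nearest compared genes were LCLAT1 at 0.21, DPY30 at -0.26, GPATCH11 at -0.09, CEBPZ at -0.39 and SRSF7 at -0.18, so the first lay on the side of the members and the next 4 did not. The 53 compared genes that follow the stretch had a median of -0.09, with 16 positive and 36 negative. The remaining 141 compared genes of chromosome 2 had a median of 0.00. No compared gene lay between the stretch and the chromosome end. Over all 247 compared genes of chromosome 2 the median was 0.02, and the medians of the other chromosomes lay between -0.33 on X and 0.04 on 16, with the mitochondrial genes also at 0.04.

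**Figure D4:**
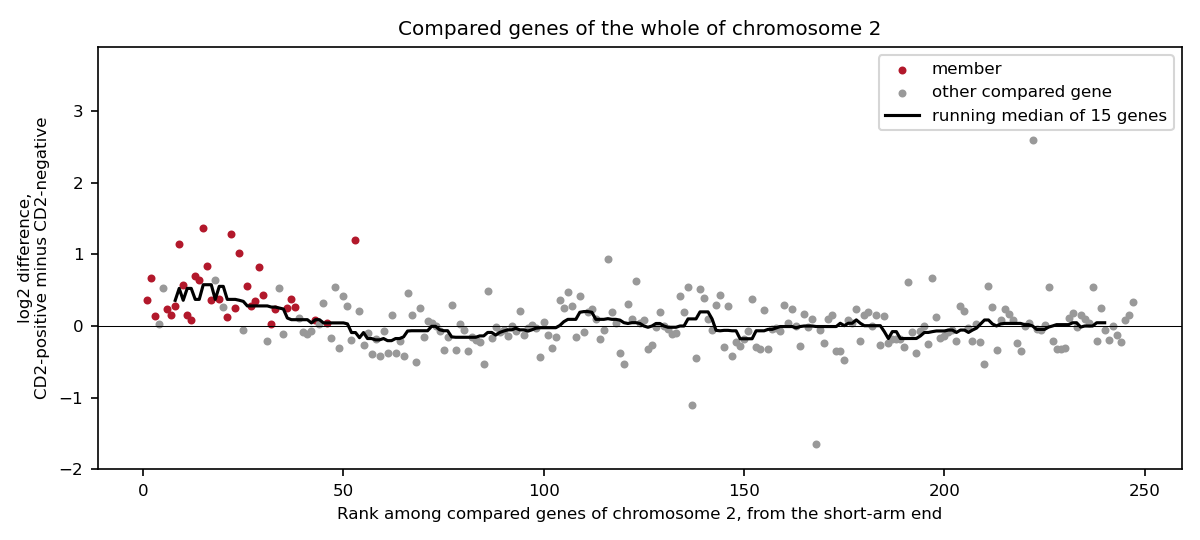
Log2 difference (vertical axis) of all 247 compared genes of chromosome 2 by rank from the short-arm end, with members in red and a line for the running median of 15 genes. The line is at its highest, 0.58, among the members and falls to -0.20 just beyond LBH.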

How the data were processed

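The authors deposited 1 linear intensity per probe set and array. Affymetrix Expression Console 1.1 and its RMA method are named in the submitters' processing notes. This method corrects background, gives all arrays 1 intensity distribution and summarises probes, so a difference in total RNA signal is removed. The linear scale and the rounding to whole numbers were read from the values, and rounding makes low values coarse.

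Values were converted to log2 and subtracted, CD2-positive minus CD2-negative. Of 54675 probe sets, 41097 carried 1 gene symbol in the platform annotation and were used, 1801 carried several and 11777 were not named. RefSeq (GCF_000001405.40, GRCh38.p14) gave current symbols for 41043 of them, and gene order. The files name no build, so coordinates are given only for RefSeq promoters. Genes with log2 6 or more on at least 1 array were compared, and called at 2-fold. With 1 array per group no test was run, and the number of arrays limits the precision. Only the log2 difference, the floor and the 2-fold rule were tried on simulated data.

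Members, role groups and lists were chosen with earlier results of these data known. Every member was to be named, with other genes of the stretch past 1.5-fold and the 5 compared genes nearest beyond it. Some of the fixed cell type markers are not reported here. Alternatives were other floors, sizes, probe-set rules, centrings and a lowess correction. Python 3.11.15, numpy 2.4.6, pandas 2.3.3, statsmodels 0.14.6 and matplotlib 3.10.9 were used.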

Additional observations from a re-analysis of the deposited data

How the results depend on the processing

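The members' median of 0.36 stayed positive under each floor, probe-set rule, centring and correction tried, and no compared member past 2-fold turned negative. The list was chosen on this contrast and the members past 2-fold are its highest. Little room was left for either to turn, so nothing is read from this. With 1.5-fold as the size rule, 10 members and 1 other gene of the stretch were higher, beside 4.24% of all compared genes. With 3-fold, 0 members were higher, and the share of all compared genes past 3-fold is not given. The mean of all probe sets left 15 members among 1783 compared genes. All 15 were positive, 2 were past 2-fold, and the median of block 1 was 0.62. Of the 14 other genes of the stretch left, 10 were positive and 4 negative. In the mean, ACP1 (-0.0041) and ITSN2 (-0.04) were negative, and 12 of 33 members moved by more than the probe-set spread. Leaving out probe sets marked _s, _x or _a kept 23 members among 1973 compared genes, with 2 members past 2-fold. The median was 0.26 for the other genes and 0.55 for block 1. ITGB1BP1 and MYCN stood at 0.00 near background, and ACP1 at -0.59 on values of 2 and 3. The share of all genes past 2-fold is not given for this setting or for the mean. Centring on the hybridisation controls, which differed by -0.18, moved the median of all compared genes from -0.05 to 0.14, of the members to 0.54, of the other genes to 0.21 (17 positive, 3 negative), of blocks 1 to 4 to 0.50, 0.55, 0.43 and 0.23, of the genes that follow the stretch to 0.092 and of the rest of chromosome 2 to 0.18. It adds 1 constant to every gene, and the share of compared genes with a positive difference became 69.2%, beside 41.9%. A floor of log2 4 gave 1 negative member, 23 positive and 20 negative other genes, 1 past 2-fold, and a median of 0.085 for block 3. A floor of log2 5 gave 1 negative member, 17 positive and 14 negative other genes, and 0.10 for block 3. A floor of log2 7 left 9 other genes, 3 positive and 6 negative, with a median of -0.11, and gave 0.51 for block 2. With no floor, 50 members were positive and 2 negative, 35 other genes were positive, 40 negative and 2 past 2-fold, and blocks 1 to 3 had medians of 0.028, 0.11 and 0.00. The median of block 2 was 0.55 when genes with probe sets of both signs were left out and 0.64 when the mean log2 value had to reach 6, a setting chosen after seeing the data. Lowess moved none of the medians or counts beyond the probe-set spread or 1.5 times. Centring on all probe sets subtracted their median of 0 and could change nothing. Leaving out DNMT3B could change nothing either, because it was below the floor and outside the stretch. No paired analysis was possible because each group held 1 array. Intensities near 4 limit what dim members can show.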

Other observations

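Read in gene order, the longest unbroken run of compared genes with a positive log2 difference on any chromosome was that of 24 genes from ACP1 to MYCN. The next longest were runs of 11 genes on chromosome 13, from N4BP2L2 to LACC1, and of 9 genes on chromosomes 11 and 19. The run on chromosome 2 holds 4 compared genes that were not in the list: RPS7, a ribosomal protein gene (0.03), RSAD2, an interferon-induced gene (0.53), PDIA6 (0.64) and LPIN1, a phosphatidate phosphatase gene (0.26). In windows of 15 compared genes, the highest median of chromosome 2 was 0.58, from KIDINS220 to NBAS, and the highest of any other chromosome was 0.29, on chromosome 14 from SPTLC2 to ITPK1. The lowest window median was -0.75, on chromosome X from ARMCX6 to PSMD10. These runs and windows were looked for after the stretch was known, and 20 of the 24 genes of its run are members chosen on these same differences. CPSF3, ADAM17, KLF11 and NBAS passed the floor only through the CD2-positive array and could not have broken the run. Its length beside that of other runs is therefore a description, and neighbouring windows share genes.

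Within the run, the size of the difference varied between genes, also among bright ones, and a cause was not tested. RPS7 read 1376 in CD2-positive cells, against 1350 in CD2-negative cells, a log2 difference of 0.03. Before it in the order of compared genes stood RNASEH1 at 0.15 and ADI1 at 0.67. ID2 and TRIB2 differed by 0.15 and 0.12 on the log2 scale, and ITGB1BP1, adjacent to neither, by 1.14. The other probe sets above the floor gave 0.05 for ID2 and 0.30 for TRIB2. The gaps between genes therefore depend in part on the probe set taken.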
